A study of Mus musculus with 12 samples.

Results

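The comparison described here was that of day 4 anti-GBM glomerulonephritis with control in glomeruli of 129S2SvPAs mice. Its members were the arrays titled as day 4 anti-GBM GN of this strain (3 arrays) and those titled as control animals of the same strain (3 arrays), 6 of the 12 arrays of the series. All mice were females aged 8 to 10 weeks from Charles River, with 1 array per mouse. The nephritis mice, inbred 129S2SvPAs with no allele named in the labels, received nephrotoxic serum on days 0, 1 and 2 and were killed on day 4. The control group is spelled 129S2SvPAS in its title and is given as control in its treatment field. The protocol text is the same for every sample, so the labels do not say what, if anything, the controls were injected with. Glomeruli were collected between nylon sieves of 100 and 45 µm, and their RNA was hybridised to Affymetrix arrays. The labels describe no Cre, transgene or pooling of animals. The p-values below rest on the spread between arrays within groups, estimated over all 12 arrays of the series, the other strain included. The arrays are separate mice as far as the labels say.

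The glomerulus filters blood through a wall of fenestrated endothelium, a basement membrane rich in collagen IV and laminin, and podocytes whose foot processes are joined by the slit diaphragm. Mesangial cells hold the capillary loops together, and parietal epithelial cells line the surrounding capsule. In anti-GBM nephritis, antibodies against the basement membrane deposit along the capillary wall and recruit complement and leukocytes. The capillaries are injured, fibrin can leak into the capsule, and epithelial cells can proliferate into crescents.

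The deposited values were log2 probe set signals, with medians of 3.02 to 3.06 on the 6 arrays, and 11920 genes passed the filter on low values and were tested with limma, a linear model with moderated variances. The number of arrays limits the precision. Nephritis replicate 1 stood apart from the other nephritis arrays, with Pearson's r of 0.974 and 0.973 to them across genes against 0.994 between them and 0.983 to 0.989 among the controls. Markers of the labelled tissue were present: 16 of 17 slit diaphragm and podocyte membrane genes, 24 of 28 endothelial genes, 12 of 14 mesangial and pericyte genes and 14 of 18 parietal genes were above the table median of 3.03 on all 6 arrays. So were 33 of 34 proximal tubule genes and 29 of 31 genes of later nephron segments, from the loop to the duct, so tubule transcripts were also in these preparations. That median is a low bar: 11920 of 18193 genes were above it on at least 3 of the 12 arrays. The share of all genes above it on all 6 arrays is not given here. The mean of the proximal tubule list ran from 11.23 to 11.40 in controls and from 10.70 to 10.83 in nephritis, and that of the distal list from 8.46 to 8.61 and from 7.90 to 8.15. In bulk samples such as these, fewer cells of a type and less RNA per cell cannot be told apart. The part of a changed tubule share in the other results was not tested. With the proximal tubule mean added to the fit as a covariate, 51 genes passed. The standard errors were widened by a median factor of 2.25, and the slope on the original changes was 0.904. Centred, that mean was 0.144 to 0.318 in controls and -0.406 to -0.273 in nephritis. It thus separated the groups fully, and this fit cannot tell a tubule share from the nephritis. With the covariate, 67 of the 268 named genes that passed had a change over 1.5 times larger or smaller.

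Nephritis changed 2424 of the 11920 genes (20.3%) at an adjusted p under 0.05 in limma. Of these, 1260 rose (10.6%) and 1164 fell (9.77%). The rises were the larger changes. Of the genes that rose, 71 had a control mean under the table median of 3.03. Among the falls, 25 had a nephritis mean under it. The filter asked for at least 3 arrays above that median, so such genes could enter through the arrays where they were high. The median size was 1.04 on the log2 scale for genes that rose and 0.87 for genes that fell, and 193 genes rose at least 4-fold where 49 fell at least 4-fold. Past 16-fold there were 14 rises and 1 fall. The 3 nephritis arrays did not overlap the 3 control arrays for 3875 genes (32.5%), among them 2367 of the 2424 that passed. Non-overlap is therefore no separate result for genes that passed, here or below. Without nephritis replicate 1, 2649 genes passed, 1459 higher (12.2%) and 1190 lower (9.98%), and 2027 of these also passed with it, with no change of sign. Each gene is given by its brightest probe set: with the mean of all its probe sets instead, 90 of 267 named genes that passed had a change over 1.5 times larger or smaller, all in the same direction.

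**Figure D1:**
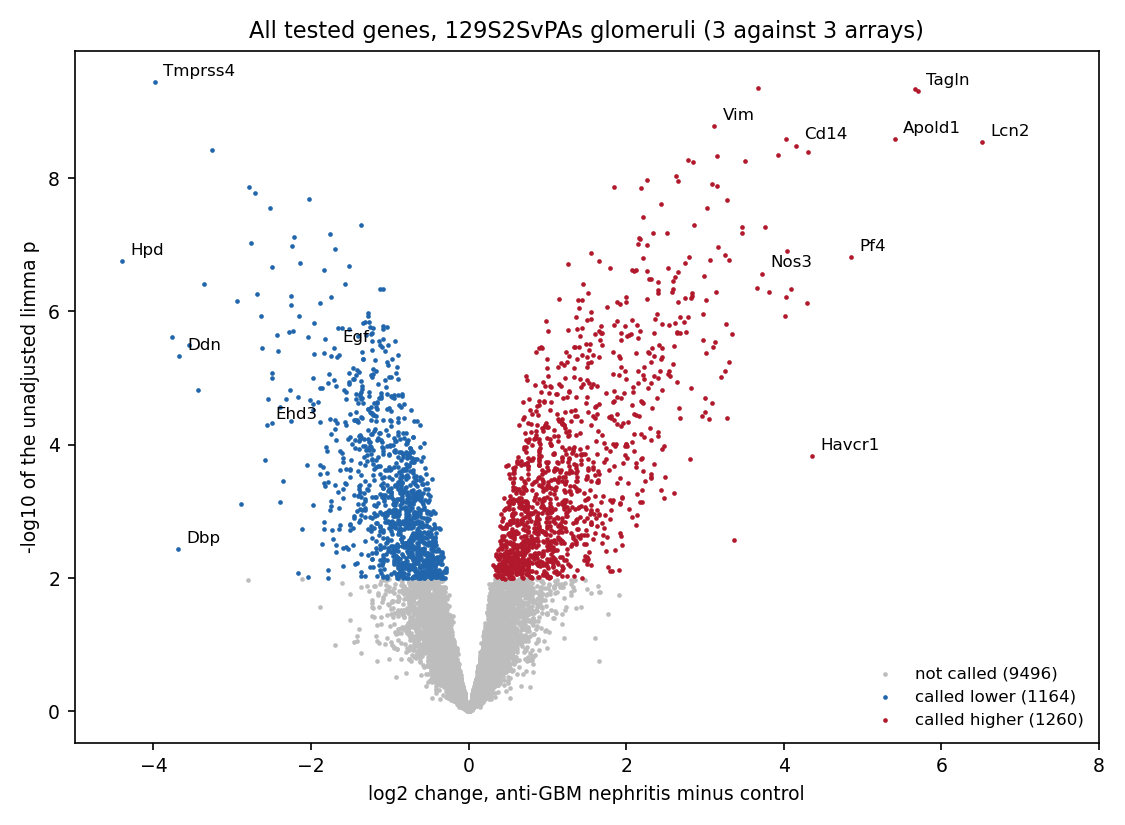
Each point is 1 of the 11920 tested genes, with the log2 change (nephritis minus control) on the horizontal axis and the -log10 of the unadjusted limma p on the vertical axis. Red points are the 1260 genes called higher, blue points the 1164 called lower and grey points the rest; the right arm reaches farther than the left, with Lcn2 at 6.52 and Hpd at -4.40.

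The largest rise was in Lcn2, which encodes lipocalin 2, an iron-carrier binding protein released by injured tubule cells and by neutrophils. Its log2 values were 3.60, 3.59 and 3.44 in controls and 9.37, 10.20 and 10.63 in nephritis, a change of 6.52 (SE 0.37). Tagln, which encodes the actin-binding protein transgelin of smooth muscle, stood at 4.82, 4.93 and 5.01 in controls and 10.32, 10.89 and 10.65 in nephritis, a change of 5.70 (SE 0.27). Both genes rose on every nephritis array by more than 5 log2 units over the control mean. The largest rises and falls were picked among genes whose groups did not overlap, so non-overlap is no separate result for them. Apold1, an early response gene of vascular cells, had values of 3.05, 2.86 and 3.16 in controls and 8.54, 8.40 and 8.35 in nephritis, a change of 5.41 (SE 0.30). Pf4, the platelet factor 4 chemokine stored in platelet granules, was near the floor of the table in controls and high in all 3 nephritis mice, at 2.86, 2.86 and 2.88 in controls and 7.52, 7.94 and 7.72 in nephritis. Values near that floor understate a difference. Further rises of 4 log2 units or more were in Crct1, a cysteine-rich gene of the epidermal differentiation complex (5.67, SE 0.27), Havcr1, encoding the tubular injury molecule KIM-1 (4.36, SE 0.76), Ch25h, the cholesterol 25-hydroxylase (4.31, SE 0.25), Jam2, a junctional adhesion molecule (4.30, SE 0.42), Cd14, the co-receptor for bacterial lipopolysaccharide (4.16, SE 0.24), Inhbb, an activin subunit (4.09, SE 0.38), the kinase anchor Akap12 (4.04, SE 0.33), haem oxygenase Hmox1 (4.03, SE 0.39), the TWEAK receptor Tnfrsf12a (4.03, SE 0.23) and the cell cycle inhibitor Cdkn1a (4.02, SE 0.41). Havcr1 was the most scattered of them, at 3.09, 2.87 and 3.76 in controls and 5.53, 8.32 and 8.95 in nephritis, with replicate 1 below the other nephritis mice but above every control.

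The largest fall was in Hpd, an enzyme of tyrosine breakdown, with values of 13.23, 13.74 and 13.11 in controls and 9.90, 8.61 and 8.38 in nephritis, a change of -4.40 (SE 0.37). Tmprss4, a membrane serine protease, fell from 7.23, 7.01 and 7.34 to 3.18, 3.52 and 2.93, a change of -3.98 (SE 0.18). Both genes were lower on all 3 nephritis arrays, as the rule that picked them required. The calcium buffer parvalbumin (Pvalb) of the distal convoluted tubule fell by 3.76, dendrin (Ddn), a podocyte protein that binds the slit diaphragm, by 3.67, the chloride channel family member Clic3 by 3.43 and the methyltransferase Inmt by 3.36. The sodium-calcium exchanger Slc8a1 fell by 3.55. The clock output factor Dbp fell by 3.69, but its call was lost without nephritis replicate 2 or 3 or control replicate 2 or 3. Other genes among the 15 largest falls were the long non-coding transcript Hnf4aos (-2.94, SE 0.29), the mitochondrial reductase Mtarc1 (-2.89, SE 0.62), the organic cation transporter Slc22a4 (-2.79, SE 0.18), the nuclease Dnase1 (-2.71, SE 0.18) and the cytochrome Cyp2e1 (-2.69, SE 0.25).

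**Figure D2:**
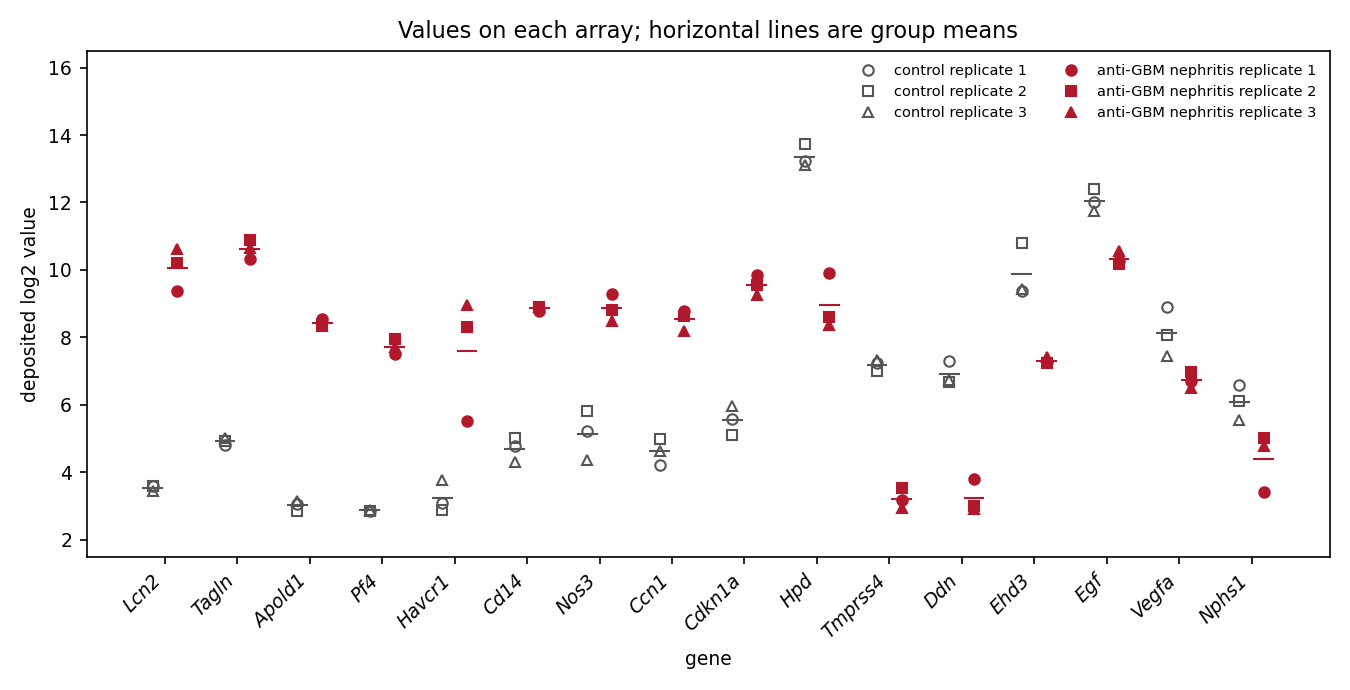
Deposited log2 values (vertical axis) of 16 genes named in the text (horizontal axis) on each array, with open grey symbols for control and filled red symbols for nephritis replicates 1 (circle), 2 (square) and 3 (triangle), and a line at each group mean. The groups do not overlap for any of these genes; nephritis replicate 1 lies apart from the other nephritis arrays for Havcr1 (5.53 against 8.32 and 8.95) and for Nphs1 (3.42 against 5.01 and 4.77).

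A gene's call was checked by leaving out each of the 6 arrays in turn. Of the 268 genes of the naming rule that passed, 221 kept their call each time. A loss is stated where a gene that did not is named. With the spread taken from the 6 arrays alone, 208 of the 268 passed. Mtarc1, Vegfa, Hspg2, Ccna2, Birc5, Agt, Edn1 and Tnfrsf1a were among those that did not. The named genes were mostly picked by size of change or low p, so these counts do not stand for all called genes. Of all 2424 called genes, 1385 passed with the 6 arrays alone and 1709 to 2027 with 1 array left out. Below, the genes are grouped in 52 lists by role, with 1024 genes tested and 409 of these called. Each list is read against the background of 10.6% of all tested genes rising and 9.77% falling. The lists were chosen with earlier results of these data known, so their counts are not independent of the response.

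Promoters of 4 genes that rose are shown because each holds, in the RefSeq window from 250 bases before to 50 after the start (build GRCm38.p6), a letter pattern tied in textbooks to a regulator of its list. Both strands were searched, capitals mark the match, and a match is a description of letters, not of binding. Cnn2 (calponin 2, chr10:79988499-79988598, plus strand) and Srf (serum response factor, chr17:46556170-46556289, minus strand) hold the CArG box, the pattern bound by serum response factor. Rsad2 (viperin, chr12:26456518-26456617, minus strand) holds the interferon response pattern, a pair of GAAA with any NN between, here on the other strand. Txnrd1 (thioredoxin reductase, chr10:82859069-82859167, plus strand) holds the antioxidant response pattern TGACNNNGC, here also on the other strand.
Cnn2: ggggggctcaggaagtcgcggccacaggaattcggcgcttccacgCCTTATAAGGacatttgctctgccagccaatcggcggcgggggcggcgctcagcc
Srf: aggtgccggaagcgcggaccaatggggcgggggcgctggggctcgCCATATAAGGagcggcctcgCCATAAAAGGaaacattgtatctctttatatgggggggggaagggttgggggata
Rsad2: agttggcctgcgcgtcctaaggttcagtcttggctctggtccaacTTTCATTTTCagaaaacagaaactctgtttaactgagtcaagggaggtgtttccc
Txnrd1: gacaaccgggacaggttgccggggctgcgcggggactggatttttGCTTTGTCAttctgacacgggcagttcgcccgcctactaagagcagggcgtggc
The Cnn2 match ends 46 bases before the start, the nearer of both Srf matches 52 bases, the Rsad2 match 110 bases and the Txnrd1 match 83 bases. The interferon pattern was in 13 of 27 tested interferon genes with a promoter entry (48.1%) and in 6 of 11 of those that rose (54.5%), against 3.99% of all 27025 genes of the promoter table. The antioxidant pattern was in 7 of 20 tested NRF2 targets (35.0%) against 14% of all genes. A CArG box was in 3 of 16 smooth muscle genes (18.8%) and in 4 of 23 immediate early genes (17.4%) against 1.81% of all genes, but in 1 of 9 (11.1%) and 1 of 15 (6.67%) of the members that rose. Among all 1005 risen genes with an entry, the CArG box was in 2.49%, the interferon pattern in 3.18% and the antioxidant pattern in 18.8%. The lists were composed by function and with earlier results of these data known. The shares thus describe the lists, not the response.

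Epithelial injury genes rose in 18 of 25 tested members and fell in 0, with a median change of 1.56. Beside Lcn2, Crct1 and Havcr1, the intermediate filament vimentin (Vim), made by injured epithelium as well as by podocytes and mesenchyme, stood at 9.45, 9.46 and 9.40 in controls and 12.25, 12.77 and 12.64 in nephritis. The annexin Anxa2 rose by 2.80, its partner S100a10 by 1.56, the beta tubulin Tubb6 by 2.99, the hyaluronan receptor Cd44 by 2.53, galectin 3 (Lgals3) by 1.37 and the secreted chaperone clusterin (Clu) by 1.10. All 3 nephritis arrays lay above all 3 controls for these 6 genes, but groups did not overlap for 2367 of the 2424 genes that passed. The keratins Krt7, Krt8, Krt18 and Krt19, which mark simple epithelia, did not pass, nor did the repair factor Sox9. The nephritis mice differed in the size of this response: the list mean, each gene centred over the 6 arrays, was 0.70 in replicate 1 and 1.23 and 1.26 in replicates 2 and 3, against -1.18, -0.74 and -1.26 in the controls.

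Genes of the actin cytoskeleton rose in 28 of 34 tested members, and none fell. The crosslinker alpha-actinin 1 (Actn1) had values of 6.46, 6.67 and 6.45 in controls and 8.78, 9.49 and 9.19 in nephritis. The LIM protein Pdlim7 rose by 3.47, filamin A (Flna) by 2.26, the capping protein Capg by 2.60, the actin-sequestering peptide Tmsb10 by 2.14, the non-muscle myosin Myh9 by 1.41 and beta-actin itself (Actb) by 0.83. All 3 nephritis arrays lay above all 3 controls for these genes, and groups did not overlap for most genes that passed. Tubulin genes rose in 8 of 13, with Tubb2b at 6.10, 5.52 and 5.92 in controls and 8.14, 8.02 and 7.89 in nephritis and Tuba1a, Tubb2a and Tubb5 up by 2.18, 2.15 and 1.79. Tubb6, which the injury list also holds, had the largest change among them.

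The smooth muscle and myofibroblast list, genes of contractile cells that mesangial cells and pericytes can also express, rose in 10 of 19 tested members and fell in 2. After Tagln, smooth muscle actin (Acta2) stood at 6.95, 5.94 and 6.68 in controls and 9.20, 8.55 and 8.81 in nephritis. Caldesmon (Cald1) rose by 2.31, the LIM protein Csrp1 by 2.35, calponin 2 (Cnn2) by 1.99, tropomyosin 1 (Tpm1) by 1.60 and Tagln2 by 1.44. The members that fell, named here because they ran against the list, were Fhl1 (-0.67, SE 0.13) and Csrp2 (-0.69, SE 0.14). Smooth muscle myosin (Myh11), smoothelin (Smtn) and myosin light chain kinase (Mylk), markers of mature contractile cells, did not pass. Of the mesangial and pericyte genes, 3 of 12 rose and 1 fell. Matrix Gla protein (Mgp) rose by 2.68 and the pericyte regulator Rgs5 by 0.93. The pericyte receptor Pdgfrb rose by 0.98 (adjusted p = 0.0452 in limma) and the growth factor pleiotrophin (Ptn) fell by 1.08, and both calls were lost when any of several single arrays, nephritis replicate 1 among them, was left out.

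Interstitial and provisional matrix genes rose in 19 of 23 tested members, with a median change of 1.55 and none lower. The matricellular protein Ccn1, an early target of stretch and growth factor signals, stood at 4.22, 4.99 and 4.64 in controls and 8.79, 8.64 and 8.20 in nephritis. Loxl1, an enzyme that crosslinks elastin and collagen, was near the floor at 2.41, 2.41 and 2.43 in controls and at 5.92, 5.19 and 5.59 in nephritis. The fibrillar collagen Col5a3 rose by 3.47, fibulin 2 (Fbln2) by 2.62, the prolyl hydroxylase P4ha2 by 1.54 and fibronectin (Fn1) by 1.82. These genes were higher on all nephritis arrays, replicate 1 included, and groups did not overlap for most genes that passed. Sparc rose by 2.41 on its brightest probe set, while 1 of its 3 tested probe sets was called lower. Among members named after their values were seen, Ccn2, encoding connective tissue growth factor, rose by 3.05, tenascin C (Tnc) by 1.85 and Col1a2 by 0.98, the last a call lost without nephritis replicate 2 or 3 or control replicate 2 or 3, while Col3a1, the collagen of loose connective tissue, did not pass.

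Collagen IV and laminin genes, which encode the basement membrane itself, rose in 7 of 19 and fell in 0. Laminin gamma 1 (Lamc1) was at 4.43, 4.44 and 4.38 in controls and 7.22, 7.51 and 7.08 in nephritis. The collagen chains of embryonic and mesangial type, Col4a1 and Col4a2, rose by 2.66 and 2.84. Col4a3, a chain of the mature glomerular network and the target of anti-GBM antibodies in patients, changed by 0.26 (SE 0.30) and did not pass (adjusted p = 0.608 in limma), with values of 8.58, 7.56 and 7.37 in controls and 7.54, 8.42 and 8.34 in nephritis that overlapped. Nor did Col4a4, Col4a5, Lama5 or Lamb2, which, like Lamc1, also encode chains of the mature membrane. Endostatin's parent collagen Col18a1 rose by 1.66, nidogen 1 (Nid1) by 2.21 and perlecan (Hspg2) by 2.32. Hspg2 stood at 7.96 in nephritis replicate 1 and at 6.18 and 5.73 in replicates 2 and 3, and its rise without replicate 1 was 1.65.

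Of 14 metalloproteinases and inhibitors tested, 8 rose. Timp1, an inhibitor of matrix proteases, stood at 2.43, 2.47 and 2.37 in controls and 5.0, 5.57 and 5.98 in nephritis. Adamts1, a protease of proteoglycans, rose by 3.34, Adamts4 by 2.12, Timp2 by 1.58, Adam15 by 1.64 and the membrane-type collagenase Mmp14 by 1.28. Integrins and their adaptors rose in 9 of 17 and fell in 1, a fall lost without control replicate 1. Itga3, the podocyte laminin receptor subunit, rose by 1.44, Itga9 by 2.10, the vitronectin receptor subunit Itgb3 by 2.5, the common beta subunit Itgb1 by 1.48 and the integrin-linked kinase Ilk by 0.50.

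Endothelial genes rose in 15 of 27 tested members and fell in 1. Nos3, the endothelial nitric oxide synthase, stood at 5.23, 5.82 and 4.37 in controls and 9.30, 8.81 and 8.49 in nephritis. The guidance receptor Robo4 rose by 2.45, the sialomucin Cd34 by 2.69, the junction proteins Pecam1 and Cdh5 by 2.67 and 1.71, and the apelin receptor Aplnr by 2.48. The member that fell was Ehd3, a membrane trafficking protein restricted in the kidney to glomerular endothelium, with values of 9.38, 10.81 and 9.42 in controls and 7.26, 7.24 and 7.42 in nephritis. The VEGF receptor Kdr, whose nephritis values of 9.0, 8.32 and 8.07 overlapped the control values of 9.13, 10.32 and 8.69, changed by -0.92 (SE 0.37) and did not pass (adjusted p = 0.113 in limma). The controls differed among themselves here: the list mean, each gene centred over the 6 arrays, was -0.69, -0.02 and -1.15 in the controls and 0.61, 0.74 and 0.52 in nephritis. Leaving out 1 array at a time gave 10 to 19 members higher, and 3 members lower without control replicate 3.

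In the VEGF and angiopoietin list, 4 of 18 rose and 3 fell, with the receptors and ligands divided. Vegfa, the growth factor that podocytes supply to the endothelium, fell from 8.90, 8.07 and 7.46 to 6.71, 6.98 and 6.49, a change of -1.42 (SE 0.32). The lymphatic factor Vegfc rose by 1.21 and the co-receptor Nrp2 by 2.55. Angpt1, the podocyte and mesangial ligand that stabilises capillaries, fell by 1.16, a call lost without control replicate 1, and Nrp1 fell by 0.83, a call lost without nephritis replicate 1 (adjusted p = 0.0705 in limma) and without 3 other arrays, and with a change of -0.53 without control replicate 2. Rises in this axis numbered 7 without control replicate 2, and falls 1 without control replicate 1. Leukocyte adhesion molecules rose in 6 of 12, with none lower. Vcam1, which binds leukocyte integrins on activated endothelium and is also made by parietal cells, was at 3.52, 3.85 and 3.81 in controls and 6.29, 6.33 and 6.13 in nephritis. Icam1 rose by 1.36, Icam2 by 1.47 and the tight junction molecule F11r by 0.55, beside Jam2 and Cd34 above.

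The podocyte foot process cytoskeleton list rose in 12 of 22 tested members and fell in 1, the fall being Ddn, at 7.29, 6.67 and 6.75 in controls and 3.81, 3.00 and 2.90 in nephritis. The intermediate filament nestin (Nes) rose by 2.64, the scaffold Slc9a3r2 by 1.70 and the LIM protein Lmcd1 by 2.12. Synaptopodin (Synpo), which bundles actin in foot processes, rose by 1.06 (adjusted p = 0.0329 in limma), a call lost without nephritis replicate 1 (adjusted p = 0.0871), nephritis replicate 2, or control replicate 2 or 3. Vim and Nes are shared with other cell types, and so is most of this list, whereas Ddn and Synpo are largely podocyte genes within the glomerulus.

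Slit diaphragm and podocyte membrane genes rose in 5 of 16 and fell in 1. The fall was nephrin (Nphs1), the backbone of the slit diaphragm, with values of 6.58, 6.12 and 5.55 in controls and 3.42, 5.01 and 4.77 in nephritis and a change of -1.68 (SE 0.45), at an adjusted p of 0.0218 by limma. The groups did not overlap, but replicate 1 carried much of the difference: without it the change was -1.19 (adjusted p = 0.0513), and the call was also lost without control replicate 1 or 2. Podocalyxin (Podxl), the main sialoprotein of the podocyte surface and also present in endothelium, rose by 1.18. The protocadherin Fat1 rose by 1.21 and the nephrin relative Kirrel by 0.86. Ephrin B1 (Efnb1) and dystroglycan (Dag1) rose by 1.04 and 0.45, calls that were lost without control replicate 2, among other arrays, and the change of Efnb1 without nephritis replicate 1 was 0.68. Without nephritis replicate 1 the list held 8 rises and 0 falls, and without control replicate 2 it held 3 rises.

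Podocyte transcription factors and identity genes did not move as a group: 2 of 17 rose and 3 fell, with a median of -0.18. The stromal and podocyte factor Foxd1 rose by 1.47. Cdkn1c, the p57 inhibitor that keeps mature podocytes out of the cell cycle, fell from 8.29, 7.79 and 7.39 to 6.32, 6.44 and 6.67, a change of -1.35 (SE 0.30). Wt1, the master regulator of podocytes, had values of 6.04, 4.84 and 5.01 in controls and 4.42, 5.03 and 4.59 in nephritis and did not pass (adjusted p = 0.314 in limma). Gas1 fell by 1.18, a call lost without control replicate 1, and Zbtb7c rose by 1.12, a call lost without nephritis replicate 1 or control replicate 2, where 1 rise was left in the list.

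Parietal epithelial genes rose in 5 of 17 tested members, and none fell. Akap12, a scaffold for protein kinases, was at 7.14, 7.08 and 5.74 in controls and 10.72, 10.78 and 10.59 in nephritis, and the ferroxidase ceruloplasmin (Cp) rose by 2.83. Cd44, a mark of activated parietal cells, stood at 2.97, 3.97 and 2.44 in controls and 5.66, 5.70 and 5.60 in nephritis. The call of the tetraspanin Cd9 (1.0, SE 0.32) was lost without any of 5 arrays. The parietal identity genes Pax8 and Cldn1 changed by -0.06 (SE 0.17) and 0.20 (SE 0.28) and did not pass (adjusted p = 0.883 and 0.69 in limma). Of the members that rose, Vcam1, Cd44 and Cd9 are also held by other lists, and the tubule expresses Pax8 and Cldn1 as well.

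Chemokines and cytokines rose in 5 of 16 tested members and fell in 2. The neutrophil attractant Cxcl1 was at 3.43, 3.72 and 3.45 in controls and 6.97, 7.56 and 7.34 in nephritis. Il34, a ligand of the macrophage growth factor receptor, rose from 2.08, 2.07 and 2.09 in controls to 3.56, 3.41 and 3.91 in nephritis, Cx3cl1, the membrane-bound ligand of monocytes, rose by 1.75, and the interferon-induced Cxcl10 by 1.63. The monocyte attractant Ccl2 was at 3.02, 3.01 and 3.04 in controls and 3.02, 3.47 and 3.05 in nephritis and did not pass (adjusted p = 0.487 in limma), and neither did Il6 (0.68, SE 0.32, adjusted p = 0.162); both were near the floor of the table. The homeostatic chemokine Cxcl12 fell by 0.95, a call lost without nephritis replicate 2, and Il18 fell by 1.07, a call lost without any of 5 arrays, nephritis replicate 1 among them. Falls in this list numbered 0 without nephritis replicate 2 and 1 without nephritis replicate 1 or control replicate 1 or 3.

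Counts of leukocyte markers that passed were small, and 10.6% of all tested genes rose. In the macrophage and pan-leukocyte list 2 of 21 tested members rose, which is near that share, and the median was -0.20. The members that rose were Cd14 and Lgals3, which endothelium and epithelium also express. The common leukocyte antigen Ptprc had values of 5.95, 6.52 and 5.28 in controls and 4.83, 5.14 and 5.29 in nephritis, with no call (adjusted p = 0.119 in limma), and Cd68, a lysosomal protein of macrophages, changed by 0.04 (SE 0.40). Of the 28 genes of this list with a probe set, 7 were at or below the table median on all 6 arrays, Itgam, Itgax, Ccr2 and Spi1 among them, and the list mean ran from 4.13 to 5.11 in controls and from 4.43 to 4.68 in nephritis. Without control replicate 3, 6 members were lower. Among neutrophil genes 1 of 5 rose, which was Lcn2, and 2 without nephritis replicate 1. The calprotectin subunits S100a8 and S100a9 were higher in every nephritis mouse, by 1.02 (SE 0.50) and 1.64 (SE 0.55), but did not pass (adjusted p = 0.182 and 0.0597). S100a9 stood at 4.32, 3.95 and 4.07 in controls and 4.96, 6.01 and 6.29 in nephritis, and without replicate 1 it passed, with a change of 2.04 (adjusted p = 0.0312 in limma). The neutrophil genes Mpo, Elane, Cxcr2, Ngp, Camp and Mmp8 were at or below the table median on all 6 arrays. No T or B lymphocyte gene passed among the 7 tested; Cd3e and Cd79a were below the filter. Of the Fc receptor and ITAM list, 1 of 14 rose, the phosphatase Inpp5d (1.12, SE 0.26), and Fcgr3 changed by -0.13 (SE 0.39) without passing.

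The Toll-like receptor and NF-kB list rose in 12 of 24 tested members and none fell. Cd14 stood at 4.77, 5.03 and 4.31 in controls and 8.77, 8.91 and 8.90 in nephritis. The subunit Relb rose by 2.10, the co-regulator Bcl3 by 2.00, and the feedback inhibitors Nfkbie and Tnfaip3 (A20) by 1.89 and 2.20, with the TNF-induced Tnfaip2 up by 2.46. The nephritis values of all these lay above the controls, and groups did not overlap for most genes that passed. In the interleukin 6 family and STAT3 list 6 of 21 rose and 2 fell. Stat3 itself rose by 1.89, its feedback inhibitor Socs3 by 1.85, the oncostatin M receptor Osmr by 1.94 and the acute phase factor Cebpd by 1.96, while the LIF receptor Lifr fell by 1.59, and the falls numbered 1 without nephritis replicate 2 or control replicate 1 or 2. In the caspase and inflammasome list 4 of 22 rose and 1 fell, and of these only the TNF receptor Tnfrsf1a (1.0, SE 0.23) among the named genes kept its call without each array in turn. Rises in that list numbered 1 without nephritis replicate 3 or control replicate 1 and 2 without nephritis replicate 2 or control replicate 2 or 3, and falls 0 without nephritis replicate 1 or 2 or control replicate 1 or 2.

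Interferon response genes rose in 13 of 32 tested members and none fell. The antiviral enzyme viperin (Rsad2), whose promoter is printed above, was at 5.71, 6.28 and 5.69 in controls and 9.16, 9.02 and 8.59 in nephritis. Tetherin (Bst2) rose by 1.18, Ifitm3 by 1.58, the transcription factors Irf1 and Irf9 by 1.10 and 1.11 and the guanylate-binding protein Gbp3 by 1.25. Oas1a, Ifit2, Ifit3, Irf8 and Stat2 did not pass. Rsad2 was as high in replicate 1 as in the others, whereas the list mean was -0.01 in replicate 1 and 0.54 and 0.60 in replicates 2 and 3, against -0.45, -0.18 and -0.51 in controls. Without replicate 1 the count was 18 of 32, and without replicate 2 or replicate 3 it was 8. MHC and antigen presentation genes rose in 5 of 18, with the lowest p for tapasin (Tapbp, 0.85, SE 0.18) and the immunoproteasome subunit Psmb10 (0.57, SE 0.13); the class II genes H2-Aa, H2-Ab1, H2-Eb1 and Cd74 did not pass, and the count was 2 without nephritis replicate 2 or control replicate 3 and 3 without nephritis replicate 3 or control replicate 1.

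Complement genes rose in 3 of 14 and fell in 2. The members that rose were Serping1, which blocks the C1 complex (1.12, SE 0.20), the surface regulator Cd55 (1.59, SE 0.36) and clusterin, Clu (1.10, SE 0.26). Factor B (Cfb), a component of the alternative pathway made in tubules, fell by 0.77 and the C1 protease C1ra by 0.77. C3 was not analysed here.

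Coagulation and fibrinolysis genes rose in 11 of 22 tested members and fell in 4. The thrombin receptor F2r stood at 9.11, 9.68 and 8.89 in controls and 12.32, 11.95 and 11.67 in nephritis, and thrombomodulin (Thbd), the endothelial protein that turns thrombin against clotting, at 7.41, 7.97 and 6.73 in controls and 10.13, 11.17 and 10.75 in nephritis. Fibrinogen alpha (Fga) rose by 3.09, and the clotting factor F13b fell by 1.04. Members named after their values were seen were the fibrinogen chains Fgb (3.28, SE 0.49) and Fgg (1.92, SE 0.48, lost without nephritis replicate 3 or control replicate 1), the urokinase receptor Plaur (1.99, SE 0.35) and urokinase itself (Plau, -1.40, SE 0.30). All 3 fibrinogen chains thus passed. The count of falls was 2 without nephritis replicate 2 or control replicate 3. Platelet and megakaryocyte genes rose in 3 of 10, namely Pf4, Ppbp (2.24, SE 0.44), another platelet granule chemokine, and Cd9. Ppbp was at 2.39, 1.82 and 1.84 in controls and 3.39, 4.98 and 4.41 in nephritis. Of the 15 platelet genes with a probe set, 7 were at or below the table median on all 6 arrays, Gp9, Gp5, Gp6 and Treml1 among them.

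Immediate early transcription factors, genes induced within minutes of a stimulus, rose in 18 of 28 tested members and none fell. Fosl2, a partner in the AP-1 complex, stood at 6.22, 6.38 and 5.68 in controls and 8.95, 8.68 and 8.41 in nephritis. The Kruppel-like factors Klf4 and Klf6 rose by 3.10 and 1.88, the small Maf protein Maff by 2.65, the nuclear receptor Nr4a1 by 2.18, Ier2 by 1.55 and serum response factor (Srf) by 0.87. Fos, Egr1 and Atf3, named after their values were seen, rose by 1.89, 2.65 and 2.12. Dusp1, Egr2, Klf2 and Zfp36 did not pass. Heat shock and chaperone genes rose in 9 of 37, with the lowest p for the small heat shock proteins Hspb8 (2.82, SE 0.27) and Hspb1 (2.96, SE 0.44) and the stress factor Atf4 (1.05, SE 0.15). The inducible Hspa1a and Hspa1b did not pass.

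Cell cycle genes rose, with a wide gap between the nephritis mice. Mitosis genes rose in 16 of 44 tested members and fell in 1, and DNA replication genes rose in 9 of 32. The proliferation antigen Mki67 was at 2.96, 2.96 and 3.07 in controls and 4.34, 6.16 and 5.94 in nephritis, cyclin A2 (Ccna2) at 2.84, 2.78 and 2.74 in controls and 3.71, 5.93 and 5.27 in nephritis and the replicative helicase subunit Mcm6 at 2.83, 3.61 and 3.85 in controls and 4.72, 6.52 and 6.42 in nephritis. Replicate 1 lay between the controls and the other nephritis mice for all 3 genes. Ube2c, which drives exit from mitosis, rose by 2.61, the centromere histone Cenpa by 1.24, survivin (Birc5) by 2.14, and the helicase subunits Mcm2, Mcm3 and Mcm7 by 1.52, 1.38 and 0.89. The mean of the mitosis list was -0.46, -0.41 and -0.32 in controls, -0.25 in nephritis replicate 1 and 0.78 and 0.65 in replicates 2 and 3. Without replicate 1, 25 of the 44 mitosis genes and 16 of the 32 replication genes rose. The single fall was lost without nephritis replicate 1 or 2 or control replicate 1 or 3. The count of mitosis rises was 8 without nephritis replicate 2 and 9 without nephritis replicate 3, control replicate 1 or control replicate 2.

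The p53 target and G1 regulator list rose in 9 of 24 tested members and fell in 2. The inhibitor Cdkn1a (p21) stood at 5.58, 5.09 and 5.96 in controls and 9.86, 9.56 and 9.27 in nephritis, as high in replicate 1 as in the others. Phlda3, an inhibitor of AKT, rose by 3.15, Btg2 by 2.00, the polo-like kinase Plk2 by 3.20, the nuclease Aen by 1.43 and Gadd45b by 1.36. Trp53 itself was not analysed here, and Mdm2 and Ccng1, other p53 targets, did not pass. The falls numbered 0 without nephritis replicate 2 or control replicate 3 and 1 without nephritis replicate 1 or 3 or control replicate 1 or 2.

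**Figure D3:**
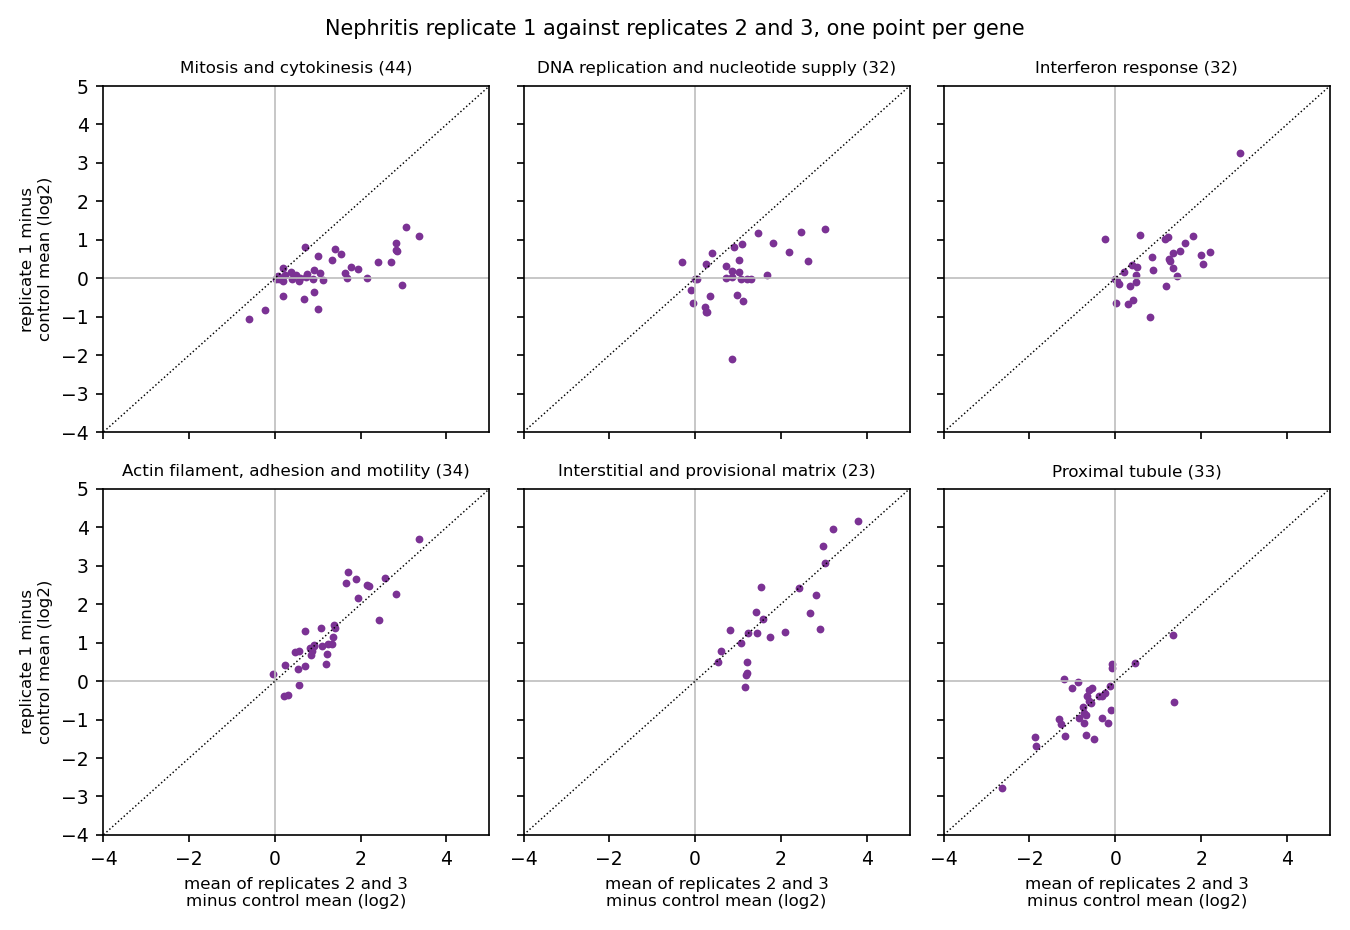
Each point is a tested gene of 1 list (number in brackets), with its mean in nephritis replicates 2 and 3 minus the control mean on the horizontal axis and its value in replicate 1 minus the control mean on the vertical axis, both in log2 units; the dotted line marks equal change. Mitosis, replication and interferon genes lie mostly below the line, with replicate 1 near 0 for many genes that rose in the others, while actin, matrix and proximal tubule genes lie around it.

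Fuel and detoxification genes are next. Of the NRF2 targets, the antioxidant genes of that factor, 5 of 24 rose and 1 fell. Hmox1 was at 5.42, 4.83 and 5.56 in controls and 8.48, 10.25 and 9.18 in nephritis, Txnrd1 rose by 1.45, the carbonyl reductase Cbr3 by 2.06 and the sulfiredoxin Srxn1 by 0.67. Nqo1, Gclc and Gclm did not pass, and Nfe2l2, which encodes NRF2, changed by 0.56 (SE 0.22) (adjusted p = 0.107 in limma). Metallothioneins and metal transporters rose in 4 of 14, with the metal-binding Mt1 and Mt2 up by 2.08 and 3.00 and the zinc importer Slc39a1 by 0.72. The NRF2 falls numbered 2 without nephritis replicate 1 or control replicate 3, and 1 metal transport gene fell without control replicate 3.

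Lipid uptake and storage genes rose in 4 of 20. The fatty acid carrier Fabp4, found in capillary endothelium and macrophages, stood at 8.66, 9.54 and 9.23 in controls and 12.26, 12.56 and 12.51 in nephritis. The lipid droplet coat Plin2 rose by 2.26, Fabp5 by 1.17 and the capillary anchor of lipoprotein lipase Gpihbp1 by 2.17. Pparg was near the floor on all arrays. None fell here, but the count of falls became 1 without control replicate 3 and 2 without control replicate 1 and 4 without nephritis replicate 1. In fatty acid oxidation, 4 of 20 rose and 3 fell, and the mitochondrial co-activator Ppargc1a fell from 8.42, 8.42 and 8.44 to 7.5, 7.19 and 7.34, with all 5 of its probe sets lower. The thioesterase Acot1 rose by 1.29. Oxidation rises numbered 1 without nephritis replicate 2 and 2 without control replicate 2 or 3, and falls 1 without nephritis replicate 2 or 3 or control replicate 2. In the sterol list, 2 of 26 rose and 3 fell, near the 10.6% and 9.77% over all tested genes. Ch25h was at 3.09, 3.18 and 3.20 in controls and 7.33, 7.83 and 7.23 in nephritis, squalene epoxidase (Sqle) rose by 1.07, and the sterol hydroxylase Cyp27a1 fell by 1.56. Sterol rises numbered 4 without nephritis replicate 1, and falls 1 without nephritis replicate 2 or 3 or control replicate 2.

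Gluconeogenesis and amino acid breakdown genes, enzymes of the proximal tubule, fell in 15 of 25 tested members and none rose. Beside Hpd, guanidinoacetate methyltransferase (Gamt) was at 7.68, 8.37 and 8.35 in controls and 5.92, 6.73 and 6.44 in nephritis. The enzymes Haao of tryptophan breakdown, Mccc1 of leucine breakdown, Prodh2 of hydroxyproline breakdown and Agxt2, a mitochondrial aminotransferase, fell by 1.26, 0.99, 1.17 and 1.33. The gluconeogenic enzymes Pck1, G6pc and Fbp1 did not pass. Proximal tubule markers fell in 14 of 33 and rose in 1. The cytochrome Cyp2e1 was at 11.87, 12.51 and 11.72 in controls and 9.25, 9.44 and 9.35 in nephritis, and Ttc36, the cystine transporter subunits Slc7a9 and Slc3a1 and the phosphate transporter Slc34a3 fell by 1.74, 1.25, 0.86 and 1.21. The endocytic receptor megalin (Lrp2) fell by 0.83, a call lost without nephritis replicate 1 or 3 or control replicate 1 or 2, with a change of -0.49 without nephritis replicate 1. The rise was the urate transporter Slc22a12 (1.29, SE 0.28), named after its values were seen. The tubule list means, given above, were lower on all nephritis arrays, so the falls here cannot be told apart from a smaller tubule share in the sieved material. Hnf4a, Slc34a1 and Gpx3, other abundant proximal genes named after their values were seen, did not pass. The median change of the proximal tubule list was -0.58, and whether its members fell unequally was not tested.

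Loop, distal tubule and collecting duct genes fell in 8 of 30 and rose in 2. The calcium-binding proteins of the distal convoluted tubule fell most: Pvalb from 9.39, 10.31 and 10.38 to 5.82, 6.41 and 6.56 and Calb1 by 2.28. Egf, made in the distal convoluted tubule and thick limb, had values of 12.00, 12.41 and 11.74 in controls and 10.27, 10.19 and 10.55 in nephritis. The thick limb transporter Slc12a1 fell by 0.85, whereas uromodulin (Umod), of the same segment, changed by 0.25 (SE 0.11) and did not pass (adjusted p = 0.146 in limma). The collecting duct water channel Aqp2 rose by 1.56. Falls in the list numbered 5 without nephritis replicate 2, and rises 1 without nephritis replicate 2 or 3 or control replicate 2 or 3. Respiratory chain genes fell in 6 of 32, by small amounts such as 0.43 for Ndufs3 and 0.37 for Ndufa9, and the count was 2 without nephritis replicate 1 or control replicate 1. In glycolysis and the hypoxia response, 1 of 23 rose, the platelet-type phosphofructokinase Pfkp (1.40, SE 0.16), and 4 fell, Pdk1 (-1.21, SE 0.21) and Vegfa among them. The glycolytic falls numbered 2 without nephritis replicate 2 or control replicate 3, and the rises 2 without control replicate 1. Hif1a did not pass (0.33, SE 0.15, adjusted p = 0.149 in limma).

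Growth factor pathways were mixed. TGF beta family genes rose in 12 of 30 tested members and fell in 1. Inhbb, the beta B subunit of activin and inhibin, was at 2.41, 2.37 and 2.35 in controls and 6.41, 7.26 and 5.73 in nephritis. The ligand Bmp2 rose by 2.84, the latent TGF beta binder Ltbp1 by 2.97, the ligands Tgfb1 and Tgfb2 by 1.37 and 1.01, the feedback repressor Skil by 0.92 and the endothelial receptor Acvrl1 by 1.13. The targets Id1, Id2, Id3 and Smad7 and the receptors Tgfbr1 and Tgfbr2 did not pass. Notch genes rose in 5 of 16, with the target Nrarp up by 1.92 and the ligand Dll1 by 1.21, while the targets Hes1, Hey1 and Hey2 did not pass. The Notch count was 2 without nephritis replicate 2 and 3 without nephritis replicate 1 or control replicate 1 or 3, and the fall in the TGF beta list, Bambi, was lost without control replicate 2. Wnt genes rose in 3 of 23, near the 10.6% over all tested genes, and fell in 1, with a median of -0.04. Among them Wnt4 rose by 1.37, and the regulators Dkk2 and Nkd1 by 2.23 and 1.34. The Wnt falls numbered 0 without nephritis replicate 2 or control replicate 2 and 2 without nephritis replicate 1. In the IGF axis 3 of 15 rose and 3 fell: the binding proteins Igfbp2 and Igfbp3 rose by 3.26 and 2.29 and the protease Pappa that frees IGF by 1.21, while the insulin receptor Insr fell by 0.85. The IGF falls numbered 1 without nephritis replicate 2 or 3 or control replicate 1 or 2. EGF receptor genes gave 1 rise and 1 fall of 12, near the shares over all tested genes, the fall being Egf. The EGF rises numbered 0 without nephritis replicate 1 or 2 or control replicate 1, and the falls 2 without nephritis replicate 1 or control replicate 3.

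In the angiotensin and vasoactive list 5 of 18 rose and 2 fell. The prostaglandin synthase Ptgs2 was at 2.74, 3.11 and 2.87 in controls and 4.85, 5.48 and 5.17 in nephritis. Angiotensinogen (Agt) rose by 1.56, endothelin 1 (Edn1) by 1.64, its receptor Ednrb by 2.81 and the prostaglandin receptor Ptger4 by 0.88, whereas the mineralocorticoid receptor Nr3c2 fell by 0.93. Ace was near the floor and did not pass. The falls numbered 1 without nephritis replicate 3 or control replicate 1 or 2. Renin (Ren1) was not analysed here.

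Circadian clock genes gave 3 rises and 5 falls of 20, counts that rested on single arrays: the falls numbered 0 without nephritis replicate 2 or control replicate 2 or 3 and 1 without nephritis replicate 3 and 3 without nephritis replicate 1 and 9 without control replicate 1, and the rises 1 without control replicate 1 or 3. Dbp was at 10.53, 12.38 and 11.94 in controls and 9.31, 6.72 and 7.76 in nephritis, and control replicate 1 lay below the other controls. The repressor Nfil3 rose by 2.20 and kept its call without each array. The labels give no time of day at which the mice were killed. Of 2 erythroid genes tested, 1 fell, Slc4a1 (-1.78, SE 0.54), which the collecting duct also expresses, and its call was lost without any of 4 arrays.

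**Figure D4:**
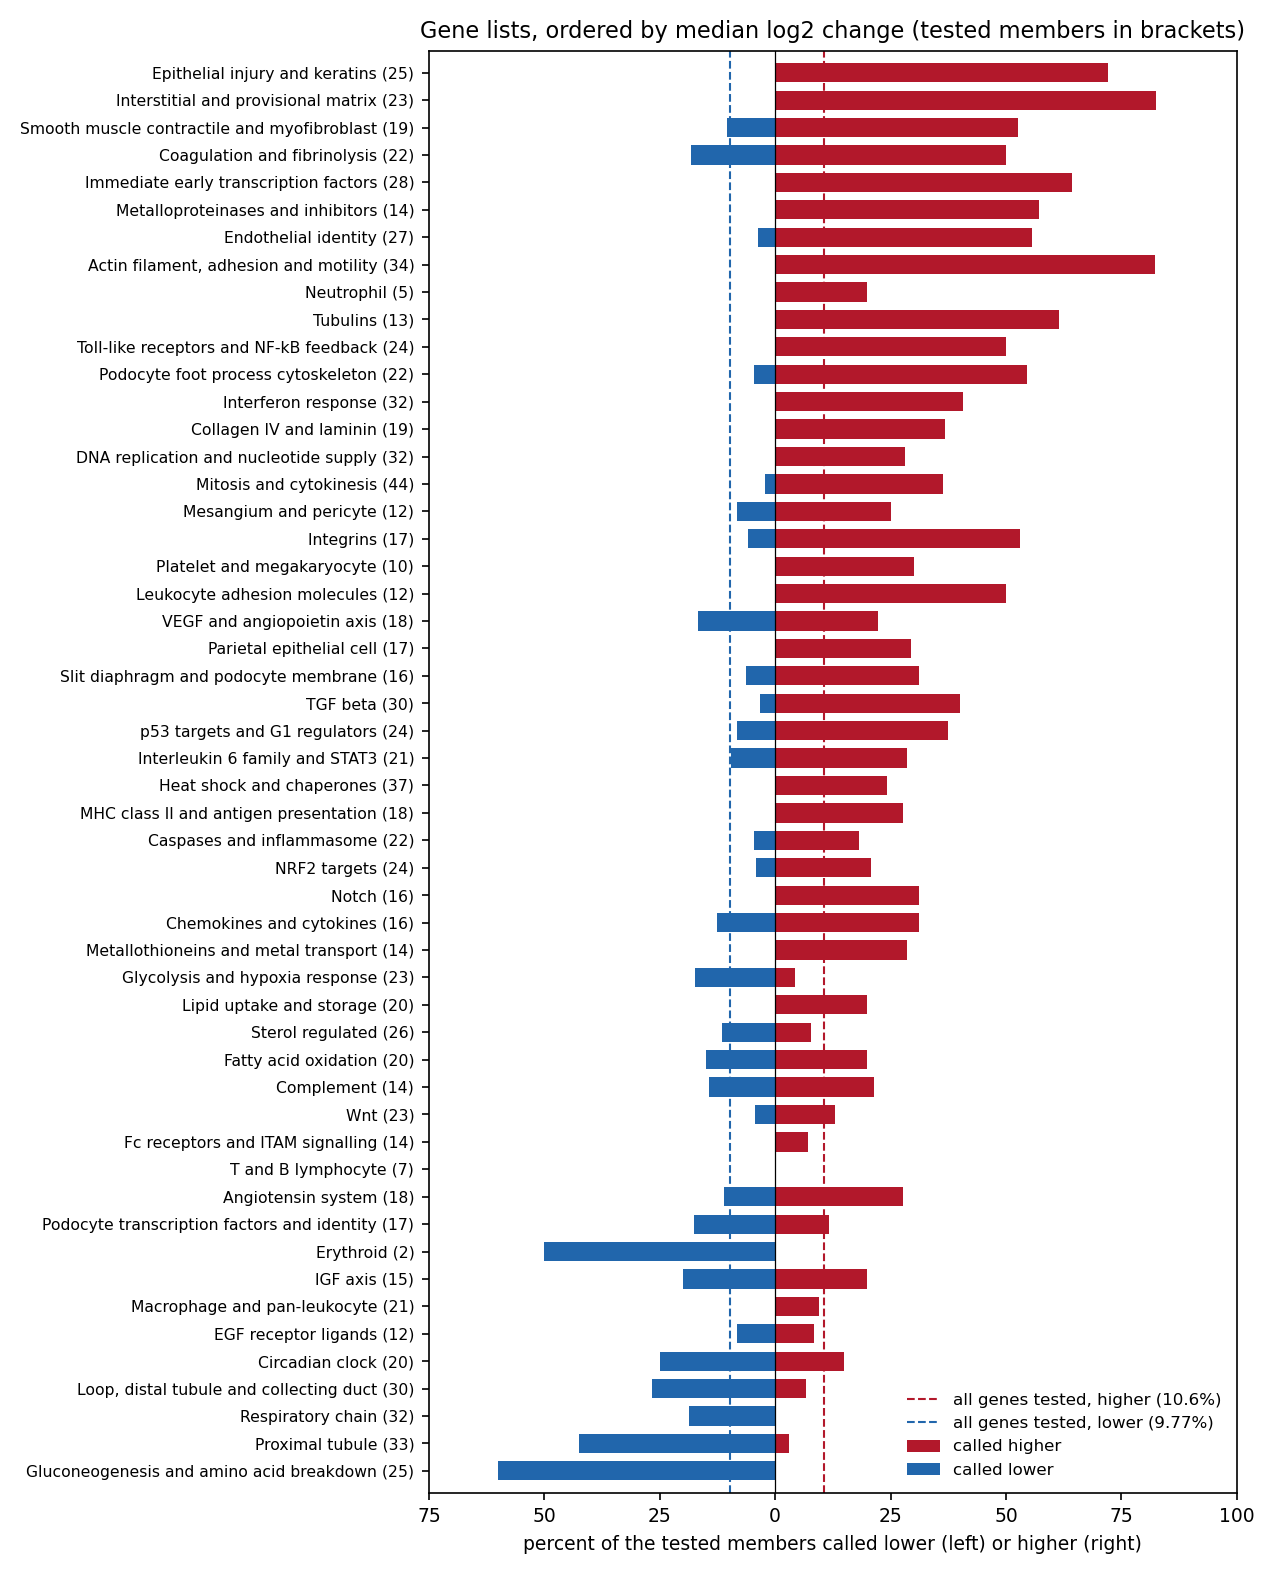
Share of the tested members of each of the 52 gene lists (vertical axis, number tested in brackets) called higher (red, to the right) and lower (blue, to the left), in percent (horizontal axis), ordered by median log2 change. Dashed lines mark the background over all tested genes, 10.6% higher and 9.77% lower; matrix, actin and injury genes reach far to the right and amino acid breakdown and proximal tubule genes far to the left.

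Nephritis replicate 1 was compared with the mean of the other nephritis arrays gene by gene. It lay at least 1 log2 unit above that mean for 397 genes and below it for 507, against 77 and 43 genes for replicate 2 and 76 and 58 for replicate 3 measured the same way. The median SD over genes was 0.23 in nephritis, 0.10 between replicates 2 and 3 alone and 0.20 in controls. Of the 622 genes that passed only without replicate 1, 377 were higher and 245 lower, and 397 genes passed only with it. Examples chosen after their values were seen were the mitotic kinase Cdk1, not called over all arrays, at 2.78, 3.62 and 2.79 in controls and 2.88, 6.23 and 5.81 in nephritis, and Cyp24a1, the enzyme that inactivates vitamin D, at 8.96, 6.64 and 5.91 in controls and 12.31, 10.14 and 9.16 in nephritis, whose rise was not called without replicate 1 or without control replicate 2 or 3. Cyp27b1, which activates vitamin D, was also high in replicate 1, at 5.48, 5.54 and 4.75 in controls and 6.30, 2.82 and 3.89 in nephritis, and did not pass. Leaving out replicate 1 took the rises from 16 to 25 of 44 for mitosis, from 9 to 16 of 32 for DNA replication and from 13 to 18 of 32 for interferon genes. For other lists, picked after their counts were seen, rises numbered 18 of 25 for injury and 28 of 34 for actin genes with and without it, and went from 19 to 20 of 23 for matrix and from 15 to 14 of 27 for endothelial genes. Falls went from 15 to 18 of 25 for amino acid breakdown and from 14 to 17 of 33 for proximal tubule genes. By list, replicate 1 was lower than the other nephritis arrays for mitosis, replication, neutrophil, interferon and injury genes, and was within 0.1 of them for smooth muscle, actin, parietal, NF-kB and amino acid breakdown genes. It was higher than they were for fatty acid oxidation (by 0.56), erythroid (by 0.45, from 2 tested genes) and lipid uptake genes (by 0.30).

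**Figure D5:**
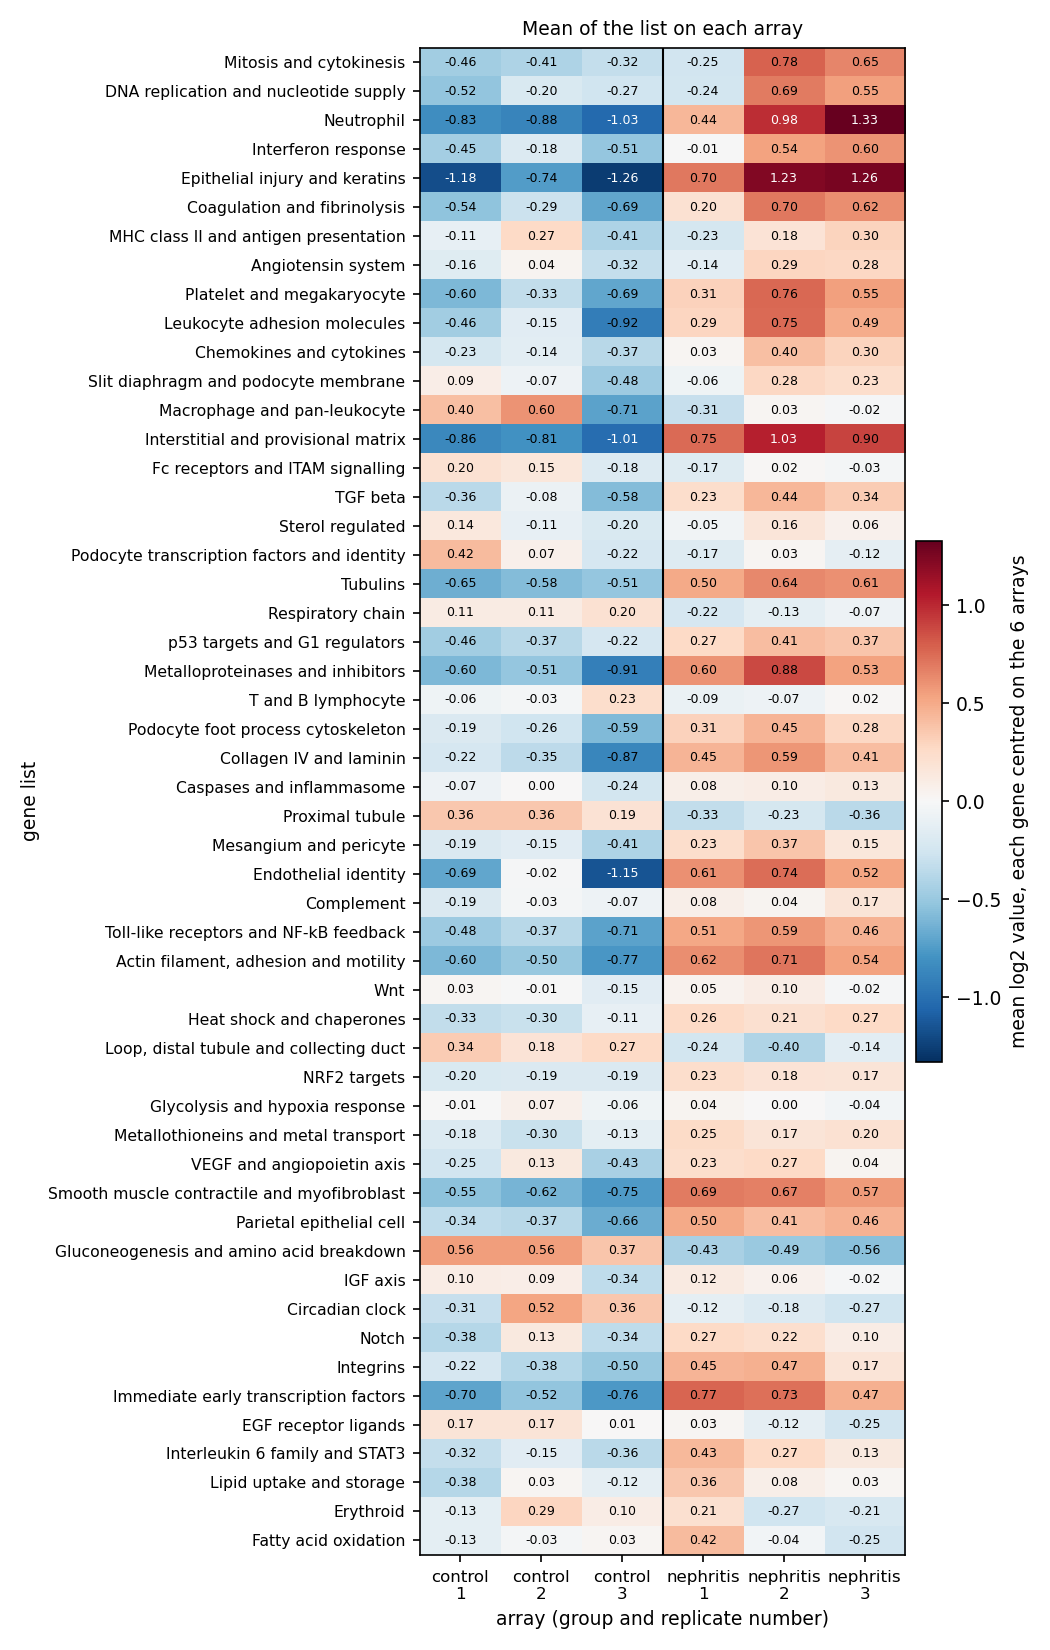
Mean log2 value of each gene list (vertical axis) on each of the 6 arrays (horizontal axis), with every gene centred on its mean over these arrays; red is above and blue below that mean, and lists are ordered by the difference between nephritis replicate 1 and the mean of replicates 2 and 3. Mitosis and replication genes, at the top, are at -0.25 and -0.24 in replicate 1 and at 0.55 to 0.78 in the other nephritis arrays, and endothelial genes vary from -1.15 to -0.02 among controls.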

How the data were processed

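RNA from sieved glomeruli was hybridised to Affymetrix mouse arrays, 1 per mouse, per the labels' protocols. The deposited series table holds log2 probe set signals made by the authors. MAS5 and GCRMA are named in the submitters' processing notes, without a version or a statement of which made the values, and their range (1.12 to 15.02) is that of a log2 scale. Of the probe sets, 34945 had 1 gene symbol in the platform annotation, 932 several and 9160 none; only the first kind was used, and the probe set with the highest mean stood for a gene. The genome build behind the probe annotation and the array scan dates are not given in the sources used here, so no batch could be tested. Genes above the table median (3.03) on at least 3 arrays were tested, 11920 of 18193.

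In limma 3.58.1 (R 4.3.3), a linear model with 1 coefficient for each of the 4 groups used all 12 arrays, so the other strain added to the estimate of spread, and nephritis minus control in 129S2SvPAs was tested, with Benjamini-Hochberg adjusted p under 0.05 over all tested genes. Each log2 change has a standard error (SE) from that fit. In simulated data of 11920 genes, 100 were changed by 1 log2 unit and 100 by 2. The fit recovered 61% of the former and 99% of the latter, with 9 false calls and none of the wrong sign. Whether these rates hold for the real arrays, where 2424 genes were called and nephritis replicate 1 stood apart, was not tested. Python 3.11.15 and pandas 2.3.3 were used for counts, and RefSeq promoter entries (GRCm38.p6) were matched by symbol for 9665 tested genes.

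Genes named in the text were the 15 largest rises and falls among genes whose arrays did not overlap, up to 6 called members of each list by lowest p, a set of marker genes, and the genes with a printed promoter. Other genes named in the text, most of them list members that did not pass, were chosen after their values were seen. The comparison, the gene lists and this rule were chosen with earlier results of these data known. Alternatives tried were the normalization, filter, summary of probe sets, variance prior, array weights, arrays in the fit, a replicate block, a tubule covariate and leaving out each array. Some genes of the lists are not reported here.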

Additional observations from a re-analysis of the deposited data

How the results depend on the processing

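Of the settings tried on the count of 2424 genes, those that moved it by over 1.5 times were array weights (3827 genes, 1987 higher and 1840 lower), a fit of the 6 arrays alone (1415, 761 higher and 654 lower), a minimum change of 1 log2 unit (1111, 671 higher and 440 lower) and the proximal tubule mean as a covariate (51, 40 higher and 11 lower). The fit of 6 arrays has fewer samples behind its spread. The covariate did not overlap between the groups and widened the standard errors by a median factor of 2.25. Other scalings, filters, probe set rules and priors gave 2050 to 2532 genes, and leaving out 1 array gave 1768 to 2649. With the arrays shifted to one median, 1140 genes were higher and 1392 lower. Testing each probe set singly gave 3507 calls. Of the 268 named genes that passed, 208 passed with 6 arrays alone, 25 with the covariate and 232 to 246 with 1 array left out. Of all 2424 called genes, 1385 passed with 6 arrays alone, 51 with the covariate and 1709 to 2027 with 1 array left out. The 2 named genes that changed sign did so with the covariate: Inpp5d at -0.06 and Ndufs1 at 0.01. The call of Ndufs1 was also lost without nephritis replicate 1 or control replicate 1 or 2. For these results the cause was not tested beyond what the settings' construction shows.

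The replicate block gave 2380 genes, 1285 higher and 1095 lower. Replicate numbers are shared between the groups, but deviations of same-numbered arrays correlated at -0.157, 0.183 and 0.00215, so the numbers were not taken as pairs.

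The limits include 3 arrays per group, 1 nephritis array standing apart, and signals near the table's floor, where differences are understated. They also include tubule transcripts in the sieved material and controls whose injections the labels do not state. Probe sets can disagree as well. Of 1120 called genes with more than 1 tested probe set, 12 had a probe set called the other way. That count leaves out probe sets that were not called, as for Vcam1, where 1 of 3 was called. Further named examples were Mcm7 (1 of 4 called), Itgb1 (2 of 5), Cd55, Srxn1 and Nkd1 (1 of 3 each) and Lamc1 and Nid1 (1 of 2 each).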

Other observations

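The genes below are in no list and were picked singly after their values were seen, so they stand for no group. The background was 10.6% of tested genes rising and 9.77% falling. Cd93, a glycoprotein of endothelium, stood at 6.64, 6.85 and 5.99 in controls and 9.61, 10.06 and 9.66 in nephritis, a log2 change of 3.28 (SE 0.23). The endothelial regulator Ecscr rose by 2.75, the adhesion receptor Adgrl4 by 2.33, the sphingosine receptor S1pr1 by 2.40 and the growth factor Pdgfb, which recruits pericytes, by 2.62. Cavin1 and Cavin3, which encode coat proteins of caveolae, rose by 2.22 and 2.54, and Ehd2, which encodes a membrane ATPase, by 2.44. The muscle stress gene Ankrd1 was near the floor in controls (2.67, 2.67 and 2.72) and at 6.14, 6.53 and 6.43 in nephritis. The gap junction protein Gja1 rose by 2.32, the receptor kinase Axl by 2.73, the stress factor Nupr1 by 3.01 and the semaphorins Sema4c and Sema7a by 3.66 and 3.00. All these calls in limma were kept without each of the 6 arrays in turn, and without nephritis replicate 1 the changes ranged from 2.11 for Cavin1 to 3.79 for Ankrd1.

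Other genes, picked in the same way, were lower. The calcium channel subunit Cacna2d2 fell by 2.54, the synaptic scaffold Lin7a by 2.59, the clathrin adaptor Snap91 by 2.32 and synapsin 3 (Syn3) by 2.23. The differentiation inhibitor Id4 was at 7.28, 8.38 and 7.11 in controls and 5.25, 5.02 and 5.69 in nephritis. The fructose carrier Slc2a5 fell by 1.98, the monocarboxylate carriers Slc16a7 and Slc5a8 by 2.15 and 1.96, the cytochromes Cyp2d12, Cyp2d22 and Cyp2c23 by 2.64, 2.49 and 2.01 and the steroid enzyme Hsd3b3 by 2.52. These calls too were kept without each array. The tubule markers were lower on the same arrays, and their part in these falls was not tested.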
